A study of Mus musculus with 24 samples.

Results

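The genes described here are 57 of the 24421 gene symbols counted in each library. They comprise all 43 symbols that start with Defb, which name beta-defensin genes, and 14 genes best known from the epididymis: Lcn5, Lcn8, Lcn9, Lcn10, Lcn12, Adam7, Adam28, Crisp1, Spag11a, Spag11b, Rnase9, Rnase10, Cst8 and Cst11. The choice was by symbol, and it was made with earlier results of these data known. Their transcripts were followed in total RNA-seq libraries of adipose tissue from C57BL/6 mice aged 2 months. Their genotype was wild type (WT) or gave them STAT5B, a transcription factor that growth hormone and cytokine receptors activate, with 1 tyrosine changed to phenylalanine (Y665F) or to histidine (Y665H). Both sexes of each genotype were sequenced, which made 6 groups of 4 libraries. The 12 male libraries are described in detail and the 12 female libraries give the background level. The labels name no fat depot, no treatment and no zygosity, and they do not say whether the libraries of a group come from separate animals, so the p-values below measure only the spread between these libraries.

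The epididymis is the coiled duct in which sperm that leave the testis mature and are stored. Its epithelium secretes proteins into the duct, and the mixture changes along its length, from the initial segment and caput next to the testis through the corpus to the cauda. Beta-defensins are small cationic peptides held together by disulfide bonds. They were first studied as antimicrobial agents, many of them are made in the epididymis under hormonal control, and some bind the sperm surface. In male mice the gonadal fat pad lies against the epididymis. By which route the transcripts came into these libraries was not tested.

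All 57 genes had a position in the GENCODE annotation of GRCm38 (mm10), on 5 chromosomes, and 9 runs of 2 or more genes with gaps under 1 Mb held all of them but Crisp1. The Defb genes lay in 5 of these runs: 11 on chromosome 2 (152459055 to 152623053), 5 on chromosome 14 (62977524 to 63058149), 14 on chromosome 8 together with Spag11a and Spag11b (18974940 to 19497775), 10 further along chromosome 8 (20892669 to 21948850), and 3 on chromosome 1 (18210053 to 18265138), of which Defb44-ps is annotated as a pseudogene. The 5 lipocalin genes lay on chromosome 2 (25490845 to 25825537), and Crisp1 lay on chromosome 17 (40293758 to 40319207).

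RefSeq (GRCm38.p6) gave a promoter window for 38 of the 57 genes. The 250 bases before the annotated start were searched for AGAACA on either strand, which reads TGTTCT on the printed strand when the match is on the other. This hexamer is the repeated unit of an element that steroid receptors bind. It was found in 18 of the 38 windows (47.4%) and in 5284 of the 32851 windows of all genes (16.1%). The 38 were limited to 1 window per gene and the 32851 were not. Base composition was not matched, so the 2 shares are no test of enrichment. The paired form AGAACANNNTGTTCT was found in 0 of the 38 windows and in 3 of all windows. A match is a run of letters and not a measured binding site. The windows are not independent, since those of some Defb genes resemble each other around the match, for example those of Defb3, Defb46 and Defb8. The windows of 4 genes are shown because their transcripts stand for the contrasting patterns described further on. Lcn8 and Rnase10 kept a nearly fixed proportion to each other in WT males 2 to 4, and Crisp1 and Defb43 did not keep theirs to Lcn8. WT male 1 is left out of this, with 1 count of Lcn8 and 6 of Rnase10. Each pattern is shown with 1 window that holds the hexamer and 1 that does not. Capitals mark a match, and every sequence runs 5′ to 3′ towards the start of the gene. The Rnase10 window (chr14:51007501-51007750, plus strand) held a match that began 42 bases before the start, and the Defb43 window (chr14:63011521-63011770, plus strand) held one 78 bases before it. The windows of Lcn8 (chr2:25652868-25653117, plus strand) and Crisp1 (chr17:40319208-40319457, minus strand) held none.
Lcn8: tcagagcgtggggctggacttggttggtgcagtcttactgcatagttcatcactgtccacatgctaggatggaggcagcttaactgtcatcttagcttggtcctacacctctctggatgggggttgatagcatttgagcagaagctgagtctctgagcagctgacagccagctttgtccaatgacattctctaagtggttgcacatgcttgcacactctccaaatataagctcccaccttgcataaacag
Rnase10: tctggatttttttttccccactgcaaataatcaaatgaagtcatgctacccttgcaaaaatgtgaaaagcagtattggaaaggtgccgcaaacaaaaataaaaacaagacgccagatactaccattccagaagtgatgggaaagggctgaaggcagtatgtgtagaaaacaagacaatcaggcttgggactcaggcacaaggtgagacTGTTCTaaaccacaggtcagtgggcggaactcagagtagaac
Crisp1: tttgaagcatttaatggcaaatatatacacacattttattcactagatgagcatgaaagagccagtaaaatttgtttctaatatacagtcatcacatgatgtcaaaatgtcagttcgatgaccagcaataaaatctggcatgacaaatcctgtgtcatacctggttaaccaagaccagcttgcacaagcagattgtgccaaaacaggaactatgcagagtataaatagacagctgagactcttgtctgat
Defb43: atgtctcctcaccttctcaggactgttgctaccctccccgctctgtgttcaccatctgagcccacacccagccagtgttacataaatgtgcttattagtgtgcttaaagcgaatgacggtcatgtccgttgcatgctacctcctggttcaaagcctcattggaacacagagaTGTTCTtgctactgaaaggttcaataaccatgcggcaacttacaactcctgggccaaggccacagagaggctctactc

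Levels are counts per 1e6 gene counts of a library (CPM), and the values of a gene are listed for males 1 to 4 of each genotype in turn. The word high has no fixed cutoff and is used relative to the other libraries of a gene. Summed over the 57 genes, the level was 1.73, 21954, 4731 and 1634 CPM in the WT males. It was 522.5, 0.728, 1.86 and 1139 CPM in the Y665F males, and 18.3, 3.32, 1957 and 200.0 CPM in the Y665H males. The highest and the lowest male library thus differed 30141-fold, and each genotype had libraries at both ends: WT male 1, Y665F males 2 and 3 and Y665H male 2 held at most 3.32 CPM. The group means were 7080 ± 10108 CPM in WT, 416.1 ± 541.2 CPM in Y665F and 544.6 ± 945.6 CPM in Y665H (SD, n = 4 each), so the SD exceeded the mean in all 3 genotypes and the groups overlapped. WT male 2 alone held 66.5% of all member counts in males. Without it the WT mean was 2123 CPM. Without Y665F male 4 the Y665F mean was 175.0 CPM, and without Y665H male 3 the Y665H mean was 73.9 CPM. In bulk tissue RNA, fewer cells of a type and less RNA per cell cannot be told apart.

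**Figure D1:**
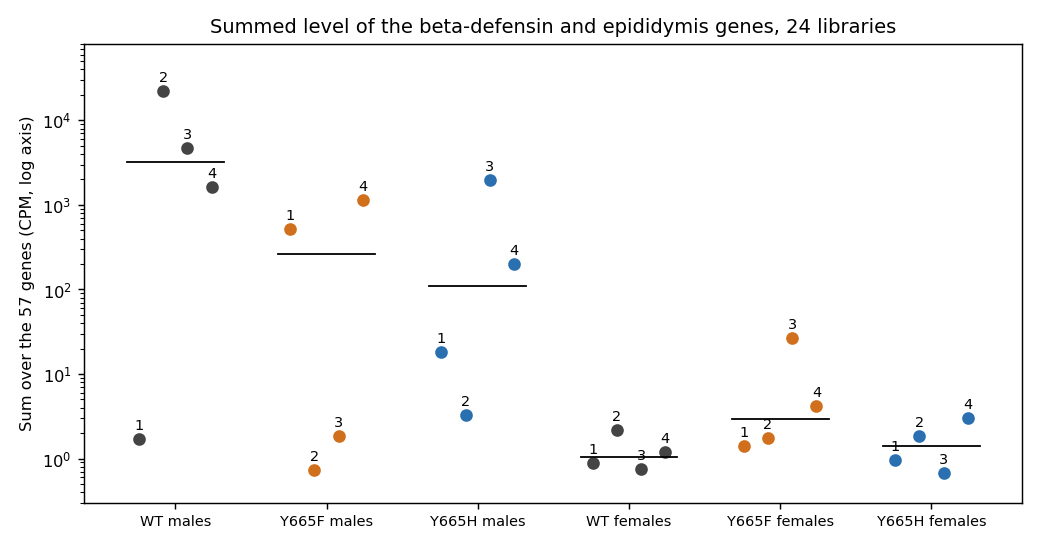
Summed level of the 57 genes in each of the 24 libraries (points, numbered by replicate), in CPM on a log axis, with a line at the median of each group. The male points of each genotype lie far apart, from 0.728 CPM in Y665F male 2 to 21954 CPM in WT male 2, while the female points lie between 0.684 and 27.0 CPM.

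The female libraries set the background. Their summed level was 0.895, 2.15, 0.753 and 1.19 CPM in WT, 1.39, 1.77, 27.0 and 4.18 CPM in Y665F, and 0.956, 1.84, 0.684 and 3.04 CPM in Y665H. Together they held 1424 counts of the 57 genes, of which 124 remained without Rnase10 and Adam28, and male libraries held 99.9% of all member counts. Rnase10 had 10 to 46 counts in every female library. Adam28 had 711 of the 785 member counts of Y665F female 3, the female library with the highest sum. In that library the summed level of 8 general epithelial genes was also the highest of all 24, at 1907 CPM, and that of 4 keratinocyte genes was 143 CPM, against at most 23.3 CPM in any other library. The latter sum was nearly all Ivl, at 137 CPM, while Krt10, Krt1 and Lor were at 4.64, 0.755 and 0.206 CPM. The part of epithelial cells in the Adam28 counts was not tested. Lcn8, with 13 counts in the same library, was the only other member to reach 10 counts in a female library.

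In males, 54 of the 57 genes had at least 1 count in some library and 48 had at least 10, of which 34 were Defb genes. Defb5, Defb7 and Defb46 had none, and Defb34, Defb3, Defb50, Defb6, Defb4 and Defb8 reached between 1 and 7 counts in their highest library. All 9 lie in the runs on chromosome 8. The gene counts per male library ranged from 21.0 to 41.3 M (M stands for 1e6). Where a gene had no count, its level may still reach 0.0726 to 0.143 CPM, depending on the library and taking 3 counts as the limit. Such limits and the intervals below cover counting error only. The number of genes with a count was 15, 53, 51 and 49 in the WT males, 41, 7, 11 and 28 in the Y665F males, and 28, 22, 44 and 37 in the Y665H males. WT male 2 was the highest library for 42 of the 54 genes, WT male 3 for 10 and WT male 4 for Defb33 and Defb4, and no library of a mutant was highest for any of them.

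The epididymal lipocalins carry small hydrophobic molecules, and Lcn5 is known as a retinoic acid carrier. Lcn8 was at 0.0288, 2556, 244 and 16.2 CPM in the WT males, 0.0321, 0, 0 and 0.0963 in the Y665F males and 0.0989, 0, 0.0605 and 0 in the Y665H males. It was thus high in 3 WT libraries and at most at 0.0989 CPM in the 8 mutant libraries. Lcn9 had the same 3 high libraries, with 0, 1465, 119 and 7.78 CPM in the WT males, and not a single count in the 8 mutant libraries. Lcn5 was at 0.0288, 2175, 230.1 and 25.5 CPM in the WT males, 153, 0, 0 and 1.83 in the Y665F males and 6.89, 0.797, 1.66 and 0.0967 in the Y665H males. Unlike Lcn8, it was therefore high in Y665F male 1 as well, and its 6.89 CPM in Y665H male 1 also exceeded the level of Lcn8 there. For both genes WT male 1 lay within the range of the mutant libraries. Of the remaining members of the family, Lcn10 peaked at 408 CPM and Lcn12 at 117 CPM, both in WT male 2; Lcn12 was also at 4.59 CPM in Y665H male 3, where Lcn10 had no count.

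Adam7 encodes a membrane protein of the ADAM family that the epididymal epithelium passes to sperm, and it had the most counts of the 57 genes, although counts also grow with transcript length. It was at 1.01, 4824, 851 and 381 CPM in the WT males, 83.7, 0, 0 and 0.417 in the Y665F males and 4.71, 0.745, 452 and 32.1 in the Y665H males. The high libraries were WT males 2 to 4, Y665H males 3 and 4 and Y665F male 1, and Y665F male 4, with a summed level of 1139 CPM, was nearly without it. Adam28, a secreted and membrane-bound metalloprotease of the same family, was at 0, 1150.4, 92.5 and 6.54 CPM in the WT males, 0.0321, 0, 0 and 0.0963 in the Y665F males and 0, 0, 0.0907 and 0 in the Y665H males. Its pattern was that of Lcn8, with 3 high WT libraries and at most 0.0963 CPM in a mutant male.

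Crisp1, a cysteine-rich secretory protein that coats sperm in the epididymis, was at 0, 843, 1611 and 769 CPM in the WT males, 125, 0.0251, 0.286 and 950.4 in the Y665F males and 0.198, 0, 1149 and 133 in the Y665H males. It was the leading gene of WT males 3 and 4, Y665F male 4 and Y665H males 3 and 4, and it was higher in WT male 3 than in WT male 2. The WT and mutant libraries overlapped. Spag11b, a relative of the beta-defensins made in the epididymis, was at 0.0576, 1802, 110.2 and 7.41 CPM in the WT males, 0.257, 0, 0.0477 and 0 in the Y665F males and 0.494, 0.206, 0.0605 and 0.0484 in the Y665H males. It was high in 3 WT libraries and at most at 0.494 CPM elsewhere. Spag11a, its neighbour on chromosome 8, peaked at 165 CPM in WT male 2 but was also at 5.04 CPM in Y665F male 1, where Spag11b was at 0.257 CPM. Both gene models overlap Gm45826 on the same strand, so reads may have been assigned to neither or to another model.

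Rnase9 and Rnase10 belong to the ribonuclease A family and are secreted by the epididymal epithelium, and Cst8 and Cst11 are relatives of the cystatin protease inhibitors. Rnase10 was at 0.173, 1226, 94.3 and 7.64 CPM in the WT males, 0.225, 0.477, 0.429 and 0.321 in the Y665F males and 0.429, 0.334, 0.212 and 0.193 in the Y665H males. It was high in 3 WT libraries, and in the other 9 male libraries it was at 0.173 to 0.477 CPM, within or below the 0.284 to 1.58 CPM of the 12 female libraries. Rnase9, its neighbour on chromosome 14, was at 0, 668, 165 and 48.0 CPM in the WT males, 42.0, 0, 0 and 0.0321 in the Y665F males and 1.22, 0.308, 54.3 and 3.97 in the Y665H males. In contrast to Rnase10, it was high in Y665F male 1 and Y665H male 3 as well, and at 3.97 CPM in Y665H male 4 it also exceeded Rnase10. Cst11 peaked at 452 CPM and Cst8 at 226 CPM in WT male 2, and neither exceeded 0.160 CPM in a mutant male.

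Among the beta-defensins, the 10 with the highest mean over the male libraries came from the runs on chromosomes 2 and 14 except for Defb12, which lies on chromosome 8. On chromosome 14, Defb42 was at 0, 629.8, 131 and 42.2 CPM in the WT males, 15.9, 0, 0.191 and 156 in the Y665F males and 1.09, 0.180, 24.2 and 1.74 in the Y665H males. It was high in 3 WT males, and Y665F male 4 was above WT males 1, 3 and 4. Defb48 was at 0, 568, 36.7 and 3.44 CPM in the WT males, 0.128, 0, 0 and 1.96 in the Y665F males and 0.0330, 0, 0.967 and 0.0484 in the Y665H males. Defb47 was at 0.0288, 224, 13.3 and 1.94 CPM in the WT males, 0.321, 0.0251, 0 and 2.44 in the Y665F males and 0.0330, 0.0257, 0.786 and 0.193 in the Y665H males. For both genes WT male 2 was more than 5 times any other library, and the highest mutant was Y665F male 4. Defb30 was at 0, 237, 26.5 and 5.64 CPM in the WT males, 14.9, 0, 0 and 7.35 in the Y665F males and 0.560, 0.0257, 0.907 and 0.145 in the Y665H males. Its gene model overlaps that of Defb42 on the opposite strand by 2970 bases, and since the strand setting of the counting is not given in the sources used here, reads of Defb30 and Defb42 cannot be told apart with certainty.

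On chromosome 2, Defb20 was at 0, 821, 67.6 and 5.53 CPM in the WT males, 0.417, 0, 0 and 0.0321 in the Y665F males and 0.198, 0.129, 1.57 and 0.121 in the Y665H males. Defb25 was at 0.0864, 444, 43.1 and 2.81 CPM in the WT males, 0.193, 0.0753, 0.191 and 0 in the Y665F males and 0.0659, 0.0257, 0.0907 and 0.0967 in the Y665H males. Both were high in WT males 2 to 4 and at most at 1.57 CPM in any mutant, and WT male 2 was the highest. Defb28 was at 0, 107, 249 and 88.7 CPM in the WT males, 18.2, 0, 0 and 1.80 in the Y665F males and 0.0330, 0, 73.4 and 6.80 in the Y665H males. Defb22, whose primate counterpart is part of the sperm coat, was at 0, 81.6, 191 and 81.9 CPM in the WT males, 13.6, 0, 0 and 0 in the Y665F males and 0, 0, 112 and 8.15 in the Y665H males. These neighbours were higher in WT male 3 than in WT male 2 and were also high in Y665H male 3. Defb23 was at 0.0288, 182, 168 and 42.7 CPM in the WT males, 30.6, 0.0753, 0.0953 and 0.225 in the Y665F males and 0.165, 0.0771, 24.5 and 2.52 in the Y665H males. It was nearly equal in WT males 2 and 3, and the high mutants were Y665F male 1 and Y665H male 3. Defb12 on chromosome 8 was at 0, 152, 11.4 and 0.492 CPM in the WT males, 1.03, 0, 0 and 0 in the Y665F males and 0.330, 0.0257, 0 and 0 in the Y665H males. The other 24 Defb genes that reached 10 counts peaked between 0.671 CPM (Defb44-ps) and 73.1 CPM (Defb21). Defb1, known from kidney and other epithelia outside the male tract, was at most at 12.7 CPM, and Defb14, known from skin, at most at 1.04 CPM, both within WT libraries.

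**Figure D2:**
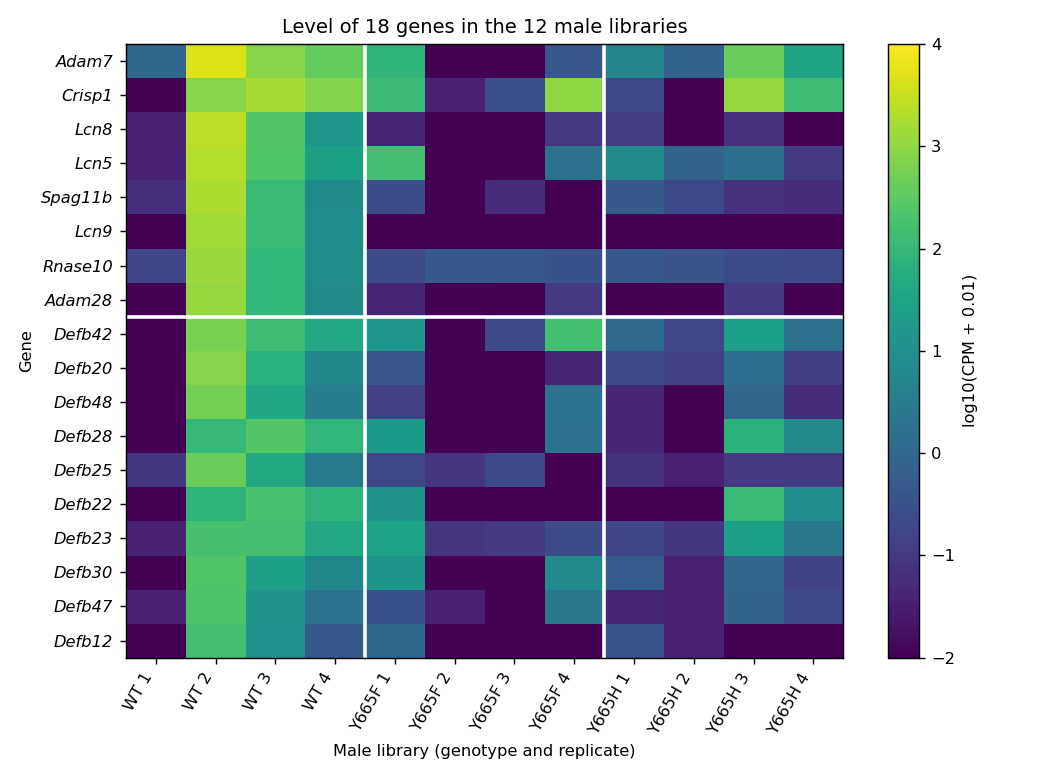
Level of the 8 non-defensin genes and the 10 Defb genes with the highest mean over the 12 male libraries (rows) in each male library (columns), as log10(CPM + 0.01). WT males 2 and 3 are at 11.4 CPM or more in all 18 rows and WT male 4 at 1.94 CPM or more in all but Defb12 (0.492 CPM), while the mutant libraries are bright in some rows only, for example Crisp1, Defb42 and Defb30 in Y665F male 4.

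The mixture of the 57 transcripts differed between libraries as well as its amount. It was described in the 7 male libraries with at least 1000 member counts, as the share of each gene in the member counts, with exact (Clopper-Pearson) 95% intervals in brackets. Crisp1 made up 3.84% (3.79 to 3.88) in WT male 2, 34.0% (33.8 to 34.3) in WT male 3 and 47.0% (46.6 to 47.4) in WT male 4. In the mutants it was 23.8% (23.2 to 24.5) in Y665F male 1, 83.4% (83.0 to 83.8) in Y665F male 4, 58.7% (58.3 to 59.1) in Y665H male 3 and 66.6% (65.6 to 67.6) in Y665H male 4. Crisp1 was thus a minor component of the library with the highest sum and the largest component of 5 of the other 6. Lcn8 ran the other way, with 11.6% (11.6 to 11.7), 5.15% (5.04 to 5.26) and 0.993% (0.913 to 1.08) in WT males 2 to 4, and with 1, 3, 2 and 0 counts in the 4 mutant libraries.

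The mixtures of the 2 Y665F libraries with many member counts differed from each other, and those of the 2 Y665H libraries were close. Lcn5 led in Y665F male 1 with 29.3% (28.6 to 30.0), ahead of Crisp1 and of Adam7 with 16.0% (15.5 to 16.6), and Rnase9 and Defb23 followed with 8.03% (7.62 to 8.46) and 5.87% (5.51 to 6.24). Y665F male 4 consisted almost wholly of Crisp1 and Defb42, the latter with 13.7% (13.3 to 14.0), and Defb43 followed with 1.15% (1.05 to 1.27). In Y665H male 3, Adam7 had 23.1% (22.8 to 23.4) and Defb22 5.71% (5.54 to 5.89). Y665H male 4 followed with 16.1% (15.3 to 16.9) and 4.08% (3.66 to 4.52) for the same genes. The proportion of the mixture that a pair of libraries had in common was 89.6% for Y665H males 3 and 4 and 87.3% for WT male 4 and Y665H male 3, which was more than the 79.1% of WT males 3 and 4 or the 56.0% of WT males 2 and 3. It was 28.6% for Y665F males 1 and 4 and lowest, at 8.52%, for WT male 2 and Y665F male 4. The pairs with the most in common were thus found within Y665H and across WT and Y665H.

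**Figure D3:**
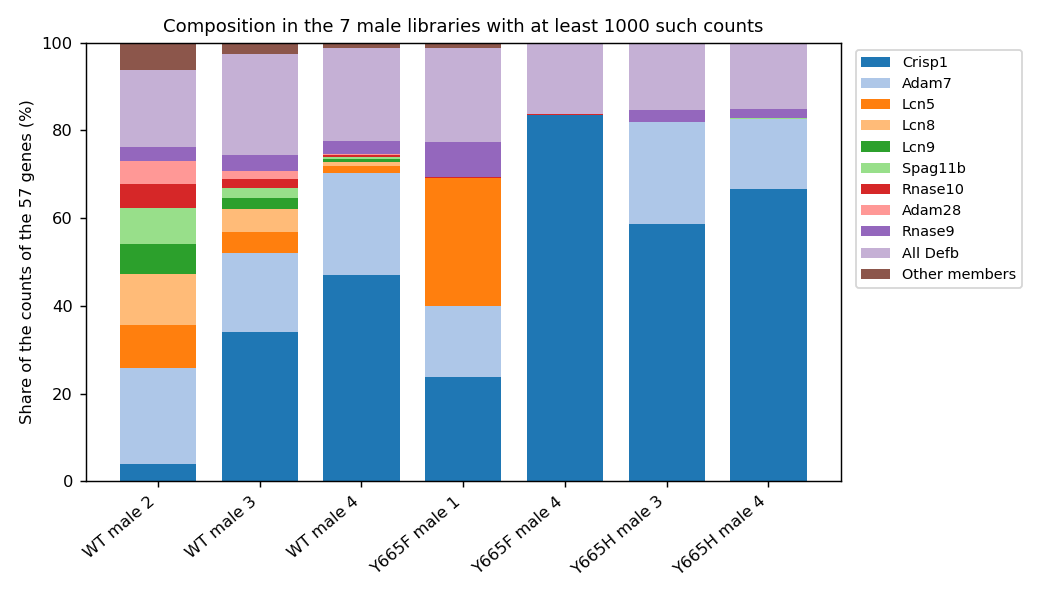
Share of each gene in the counts of the 57 genes (y axis, %) in the 7 male libraries with at least 1000 such counts (bars), with all Defb genes drawn together. Crisp1 has 3.84% in WT male 2, 47.0% in WT male 4 and 83.4% in Y665F male 4, and Lcn5 stands out in Y665F male 1 with 29.3%.

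Some genes kept their proportions to each other where others did not. In WT males 2, 3 and 4 the count of Lcn8 was 1.74, 2.04 and 2.09 times that of Lcn9, 2.08, 2.58 and 2.12 times that of Rnase10, 2.22, 2.63 and 2.48 times that of Adam28, and 5.65, 6.38 and 5.97 times that of Cst11. Lcn8 itself was at 2556, 244 and 16.2 CPM in the same libraries, so these 5 genes moved nearly in step. The ratio of Crisp1 to Lcn8, by contrast, was 0.330, 6.61 and 47.4. The ratio of Defb28 to Defb22, neighbours on chromosome 2, was 1.32, 1.30 and 1.08 in those libraries, 1.34 in Y665F male 1, 0.657 in Y665H male 3 and 0.834 in Y665H male 4, but in Y665F male 4 Defb28 had 56 counts and Defb22 had 0. The ratio of Defb42 to Defb22 was 7.72, 0.687 and 0.514 in WT males 2 to 4 and 1.17, 0.217 and 0.214 in Y665F male 1 and Y665H males 3 and 4. Spag11b to Spag11a was 10.9, 5.62 and 3.16 in the WT libraries and 0.0510 in Y665F male 1. Lcn8, Lcn9, Rnase10, Adam28 and Cst8 are known from the initial segment of the epididymis and Crisp1 from its more distal parts. Cst8, with 7064, 609 and 244 counts in WT males 2 to 4, did not move in step with Lcn8. Its level in WT male 3 was 2.48 times that in WT male 4, against 15.0 times for Lcn8. Lcn5 is known from the distal caput. The position along the duct from which any RNA came was not measured.

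Over the 48 genes with at least 10 counts in a male library, the ratio of the level in WT male 2 to that in WT male 3 ranged from 0.426 (Defb11) to 32.8 (Defb18), with a median of 7.90. It was above 5 in 26 genes, which include all 5 lipocalins, both ADAM genes, both cystatins and both Spag11 genes. It was between 1 and 5 in 12 genes, among them Defb42, Rnase9 and Defb23. The 10 genes that were higher in WT male 3 were Crisp1, Defb28, Defb22, Defb26, Defb43, Defb11, Defb38, Defb40, Defb9 and Defb14. Of these classes, 10 of 17, 2 of 7 and 3 of 8 genes with a promoter window held the AGAACA hexamer. Defb19, Defb36 and Defb33 were higher in WT male 4 than in WT male 3, and none of the other genes was. In WT males 2, 3 and 4, Defb19 had 501, 66 and 388 counts, Defb36 had 330, 42 and 79, and Defb33 had 5, 5 and 31.

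The runs of Defb genes contributed unequally. The 5 genes on chromosome 14 made up 43.1% (42.9 to 43.4) of the Defb counts of WT male 2, 20.9% (20.5 to 21.3) of WT male 3 and 17.8% (17.1 to 18.5) of WT male 4. Their share was 29.2% (27.7 to 30.7) in Y665F male 1, 97.1% (96.7 to 97.5) in Y665F male 4, 11.3% (10.7 to 12.0) in Y665H male 3 and 11.8% (10.0 to 13.7) in Y665H male 4. The 11 genes on chromosome 2 made up 46.7% (46.4 to 47.0), 69.6% (69.1 to 70.0) and 71.3% (70.5 to 72.1) in WT males 2 to 4. In the mutants they made up 62.8% (61.1 to 64.4) in Y665F male 1, 1.88% (1.55 to 2.26) in Y665F male 4, 78.3% (77.5 to 79.1) in Y665H male 3 and 70.9% (68.3 to 73.4) in Y665H male 4. Chromosome 2 thus supplied most Defb counts in 5 of the 7 libraries, and chromosome 14 did so in Y665F male 4. Per length, as CPM per kb of exon, Lcn8 was the most abundant of the 57 genes in WT male 2, at 3926, followed by Lcn5 at 2466, Lcn9 at 1747 and Defb25 at 1515. On the same scale Crisp1 led in WT male 3 at 1137, ahead of Defb28 at 627, and again in Y665H male 3 at 811, ahead of Defb28 at 185 and Defb22 at 178. In Y665F male 4 Crisp1 was at 671 CPM per kb and Defb42 at 64.2. Beyond the overlap of Defb42 and Defb30, 7 of the 57 genes (Defb2, Defb4, Defb8, Defb9, Defb10, Defb11 and Defb35) share at least 5% of their 50-base words with another of the 57, at most 20.7% (Defb2), and their counts are uncertain. So are those of Defb36 and Defb41, which overlap Gm14163 and Gm17837 on the same strand by 217 and 985 bases. Defb15 overlaps Gm36879 on the opposite strand by 2912 bases.

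**Figure D4:**
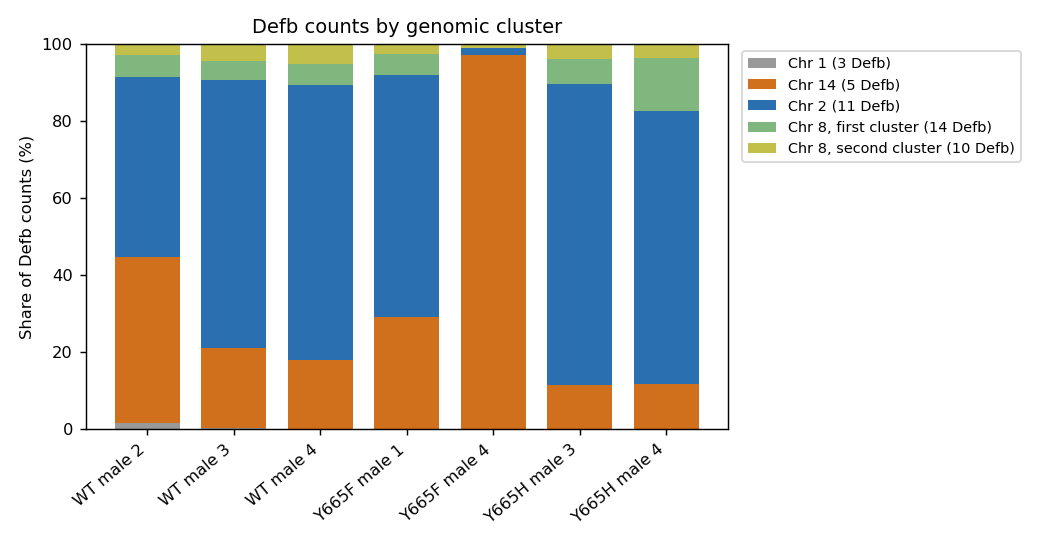
Share of each run of neighbouring Defb genes in the Defb counts (y axis, %) of the 7 male libraries with at least 1000 member counts (bars). The run on chromosome 2 gives 46.7 to 78.3% in 6 libraries and 1.88% in Y665F male 4, where the run on chromosome 14 gives 97.1%.

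Genes of the epididymal epithelium that are not among the 57 were read from a list of 19. Their summed level was 2.96, 15072, 3263 and 946 CPM in the WT males, 188, 2.96, 6.58 and 205 in the Y665F males and 20.4, 4.09, 731 and 79.6 in the Y665H males, and 0.775 to 4.91 CPM in the 12 female libraries. These are the male libraries in which the 57 genes were high, and 16 of the 19 genes were highest in WT male 2. Much of the sum in the low libraries was Aqp9, at 2.01 CPM in WT male 1 and 2.54 and 5.24 CPM in Y665F males 2 and 3. Aqp9 was also at 0.511 to 4.54 CPM in the female libraries. Gpx5, the secreted glutathione peroxidase of the caput, was at 0, 10152, 703 and 46.2 CPM in the WT males, 2.60, 0, 0.0953 and 0.353 in the Y665F males and 7.22, 1.34, 0 and 0 in the Y665H males, a pattern like that of Lcn8 with low levels in Y665F male 1 and Y665H males 1 and 2. Ces5a, an epididymal carboxylesterase, was at 0.0288, 638, 1126 and 429 CPM in the WT males, 67.1, 0, 0 and 2.76 in the Y665F males and 0.626, 0.0514, 366 and 33.1 in the Y665H males, and like Crisp1 it was higher in WT male 3 than in WT male 2. Spink8, a serine protease inhibitor, was at 0.0576, 659.6, 824 and 239 CPM in the WT males, 66.4, 0, 0.0953 and 133 in the Y665F males and 0.824, 0.103, 180.0 and 22.7 in the Y665H males, and so was high in Y665F male 4 and Y665H male 3 too. The 3 genes of clear and narrow cells, the proton-secreting cells of the duct, summed to 59.3, 15.7 and 9.98 CPM in WT males 2 to 4, to 7.80 CPM in Y665H male 3 and to at most 2.25 CPM in the other male libraries. The 7 seminal vesicle genes summed to at most 0.665 CPM. The 6 prostate genes summed to 4.81 to 8.97 CPM in males against 3.79 to 6.59 CPM in females. Most of this was Tgm4, at 4.52 to 8.73 CPM in males and 3.76 to 6.53 CPM in females, and Pbsn, which encodes probasin, was at 0 in all 24 libraries.

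Germ cell and sperm transcripts had another order over the libraries than the 57 genes. The 11 germ cell and sperm genes summed to 26.7, 86.2, 31.9 and 1283 CPM in the WT males, 27.0, 20.7, 23.7 and 47.7 in the Y665F males and 119, 26.5, 79.4 and 45.8 in the Y665H males, and to 16.3 to 27.3 CPM in females. They were highest in WT male 4, as were 10 of the 11 genes taken singly, including the protamine gene Prm2 at 229 CPM and Tnp2 at 242 CPM, and Y665H male 1, with a member sum of only 18.3 CPM, ranked next. The 5 Leydig and Sertoli cell genes were likewise highest in WT male 4, at 86.8 CPM. Star alone was at 8.04 to 12.3 CPM in the other males and 14.3 to 23.2 CPM in females. In the same libraries the 5 genes summed to 9.53 to 36.1 CPM and 15.6 to 25.1 CPM, respectively. Of these, Cyp17a1, a steroid synthesis enzyme of Leydig cells, was at 19.1, 24.9 and 51.5 CPM in WT males 2 to 4, 22.4 CPM in Y665H male 3 and 4.01 CPM in Y665F male 1, against at most 1.4996 CPM in the other males. These libraries were all high for the 57 genes, but Y665F male 4, which was high as well, had Cyp17a1 at 0.385 CPM. The 10 adipocyte genes, among them Plin4, Fabp4, Cfd and Plin1, summed to 8111 CPM in WT male 2 and to between 12755 and 25990 CPM in the other 11 male libraries, so the defining adipocyte genes were abundant in all 12. General epithelial genes were at 1233, 668 and 347 CPM in WT males 2 to 4 and at 78.4 to 479.8 CPM in the other males. Etv5, a transcription factor known from the initial segment, was at 319.6 CPM in WT male 2 and at 18.0 to 43.4 CPM in the other males. The part of these other cells in the levels of the 57 genes was not tested.

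**Figure D5:**
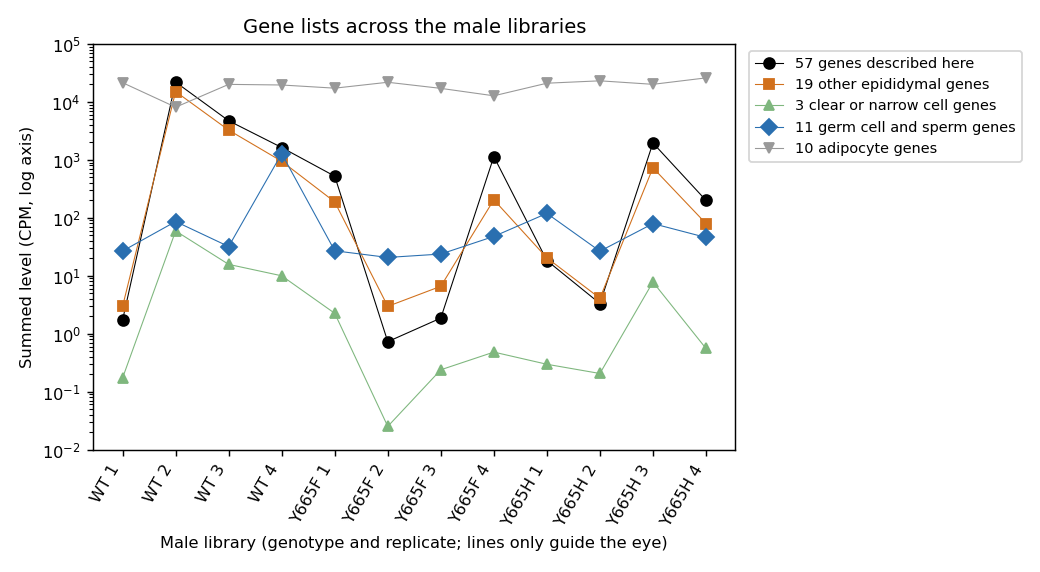
Summed CPM (log axis) of the 57 genes and of 4 gene lists in the 12 male libraries; the lines only join the points of a list. The 19 other epididymal genes are high in the libraries where the 57 are, from 2.96 CPM in Y665F male 2 to 15072 CPM in WT male 2, while the germ cell genes peak in WT male 4 at 1283 CPM and the adipocyte genes are lowest in WT male 2 at 8111 CPM.

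Whether either substitution went with a different level in males was tested over all genes with edgeR (quasi-likelihood test, Benjamini-Hochberg adjustment, called at an adjusted p under 0.05). The 2 comparisons with WT share the same 4 WT libraries. For Y665F against WT, 29 of the 57 genes passed the filter on low counts and 0 were called, as were 0 of 16240 genes (0%), with 14 members and 2772 genes at an unadjusted p under 0.05. The members with the smallest p were Rnase10 and Defb20. For Rnase10, Y665F averaged 0.363 ± 0.113 CPM and WT 332.0 ± 597.5 CPM (SD, n = 4 each), a log2 difference of -9.74 ± 2.53 (SE) with an adjusted p of 0.185 by edgeR and of 2.45e-06 to 0.482 over the alternative settings. For Defb20 the means were 0.112 ± 0.204 and 223.4 ± 399.3 CPM, a log2 difference of -10.81 ± 2.91 (SE) with an adjusted p of 0.195 by edgeR and of 0.00458 to 0.492 over the alternatives. All 29 had lower estimates in Y665F, with a median log2 fold change of -4.60, against -0.04 over all genes. They entered the test through the libraries in which they were high, so neither the count nor the median is support for a difference. No member separated the groups without overlap, as 8.85% of all genes did. Without WT male 2 the estimates were -6.46 for Rnase10 and -7.63 for Defb20, and without Y665F male 1 that of Defb20 was -13.81. The call depended on tool and library: DESeq2 called 14 of 38 members, all lower, and 1141 of 16275 genes, and edgeR without WT male 1 called 12 of 42 members and 570 of 16632 genes.

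For Y665H against WT, 31 members were tested and 0 called by edgeR, as were 0 of 16406 genes (0%), with 13 members and 1874 genes at an unadjusted p under 0.05. Rnase10 averaged 0.292 ± 0.1104 CPM in Y665H, a log2 difference of -10.11 ± 2.53 (SE) with an adjusted p of 0.402 by edgeR and of 6.15e-06 to 0.604 over the alternatives. Spag11b averaged 0.202 ± 0.208 CPM against 480.0 ± 883.0 CPM in WT, a log2 difference of -11.21 ± 2.89 (SE) with an adjusted p of 0.402 by edgeR and of 0.0663 to 0.604 over the alternatives, among which DESeq2 gave no adjusted p for this gene. Without WT male 2 the estimates were -6.84 for Rnase10 and -7.61 for Spag11b, and without Y665H male 1 that of Spag11b was -12.02. The median of the 31 was -3.83, against -0.05 over all genes, with the same limit as above, and 0 members separated the groups, against 3.60% of all genes. DESeq2 called 13 of 38 members, all lower, and 119 of 16413 genes. For Y665H against Y665F, 10 members were tested and 0 called by edgeR or DESeq2, with 0 at an unadjusted edgeR p under 0.05, while 164 of 15986 genes were called (1.03%). For Adam7, Y665H averaged 122.4 ± 220.2 CPM and Y665F 21.0 ± 41.8 CPM (log2 difference 2.49 ± 2.23 SE, adjusted p 0.595 by edgeR, 0.215 to 0.898 over the alternatives), and without Y665H male 3 its estimate was -0.81. Defb28, with 20.1 ± 35.7 and 5.01 ± 8.86 CPM (1.96, SE 2.15, edgeR adjusted p 0.673, 0.408 to 0.848), turned to -1.20 without the same library. Lcn5, with 2.36 ± 3.09 and 38.8 ± 76.3 CPM (-4.10, SE 2.19, edgeR adjusted p 0.367, 0.289 to 0.767), turned to 1.98 without Y665F male 1. Defb30, with 0.410 ± 0.403 and 5.55 ± 7.11 CPM, had an estimate of -3.80 (SE 1.79, edgeR adjusted p 0.308, 0.234 to 0.535). DESeq2 gave an adjusted p for Defb30 but for none of the other 3. Without Y665F male 1 the estimates were 9.69 for Adam7, 5.06 for Defb28 and -2.53 for Defb30, without Y665H male 3 that of Defb30 was -4.56, and without Y665H male 1 that of Lcn5 was -5.54. None of these differences exceeded the spread between libraries.

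Males were compared with females within each genotype by the same test. The filter asks for counts in about 4 of the 8 libraries, and since WT male 1 was low, only 3 members entered in WT: Adam7, Rnase10 and Adam28. Adam7 had no count in the 4 WT females and was present in 4 of 4 WT males, and it was at least 70221-fold higher in males (3 counts over the group as the limit for females, and at least 20170-fold without WT male 2; edgeR adjusted p 0.0426, 4.31e-11 to 0.0973 over the alternatives). Rnase10 was at 0.515, 0.441, 0.511 and 1.01 CPM in the WT females and above them in 3 of 4 WT males (log2 difference 8.92 ± 2.36 SE, adjusted p 0.0435 by edgeR, 3.40e-06 to 0.190 over the alternatives), and without WT male 2 its estimate was 5.64. In all 2 of 3 members were called higher. Over all 15865 genes 7.15% were called higher and 13.1% in either direction. Adam7 separated the sexes, as did 25.2% of all genes. Adam7 entered only through the males, where it is high, so these shares are no support for a difference. Without WT male 1, 41 members were tested and all 41 were called higher, with 3053 of 16510 genes called higher. Without WT male 2, WT male 3 or any of the 4 WT females 0 were called, and without WT male 4 it was 1. DESeq2 called 39 of 41 members and 2647 of 17488 genes higher, and edgeR without the filter 9 of 54 members and 923 of 21653 genes. Without the filter Adam7 and Rnase10 lost their calls (edgeR adjusted p 0.0552 and 0.0566). With the replicate block Rnase10 lost its call (edgeR adjusted p 0.190), and 2 of 3 members were called higher, Adam7 and Adam28.

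In Y665F only Rnase10 entered, and 0 members were called by edgeR, against 15.1% of 15622 genes. The males averaged 0.363 ± 0.113 CPM, against 1.25, 0.562, 1.58 and 0.645 CPM for the single females (log2 difference -1.42 ± 0.42 SE, unadjusted p 0.00882, adjusted p 0.0538 by edgeR, 0.0314 to 0.121 over the alternatives), and Rnase10 was lower in 4 of 4 males than in any female, a separation that 24.8% of genes showed in either direction. DESeq2 called 9 of 14 members, 7 of them higher in males, and 4256 of 17424 genes, 2163 of them higher. In Y665H, Adam7, Rnase9 and Rnase10 were tested, and 2 of 3 were called higher in males. Over all 15742 genes 15.2% were called higher and 28.8% in either direction. The 2 called members, Rnase9 and Adam7, entered only through the males, where they are high, so this share is no support for a difference. Rnase9 was present in 4 of 4 males and absent from the counts of all 4 females, which makes it at least 664.7-fold higher (edgeR adjusted p 0.0354, 0.00335 to 0.0642), and Adam7 was at least 5442-fold higher (edgeR adjusted p 0.0361, 0.00138 to 0.0695) by the same limit. Without Y665H male 3 the bounds were 91.5-fold and 644.5-fold. DESeq2 gave no adjusted p for either gene. Both separated the sexes, as did 32.5% of all genes. Without Y665H male 4, or without any of the 4 Y665H females, the adjusted p of Rnase9 and Adam7 lay between 0.0601 and 0.0695. For Rnase10 the Y665H males averaged 0.292 ± 0.1104 CPM, against 0.697, 0.961, 0.466 and 0.284 CPM for the single females (log2 difference -1.20 ± 0.44 SE, adjusted p 0.0707 by edgeR, 0.0361 to 0.191 over the alternatives). With the replicate block it was called (edgeR adjusted p 0.0460). DESeq2 called 20 of 29 members and 5912 of 18569 genes, and edgeR without the filter 15 of 47 members and 4799 of 21096 genes.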

How the data were processed

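Total RNA-seq of adipose tissue was analysed in 24 libraries. The authors deposited raw read counts per gene symbol, 24421 symbols and 5 entries that name no gene. Per the submitters' processing notes, FastQC 0.11.9, Trimmomatic 0.36, STAR, SAMtools 1.9, Picard 2.9.2, HTSeq 0.9.1 and mm10 were used, and the annotation and strand setting are not given in the sources used here. The 5 entries (24.8 to 39.7% of counts) entered neither library sizes nor tests. CPM were computed from gene counts.

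Counts were tested with edgeR 4.0.16 (limma 3.58.1, R 4.3.3): TMM scaling, filterByExpr, quasi-likelihood F test and Benjamini-Hochberg adjustment over all tested genes, on the 8 libraries of each comparison. The code was tested on simulated data. Alternatives were DESeq2 1.42.0, its size factors in edgeR, no filter, the replicate number as a block and leaving out each library. No pair of libraries in a group was alike within sampling noise.

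The genes and lists were chosen with earlier results of these data known. Values in every male library are given for the 10 Defb genes and the 8 other members with the highest mean, and tests for at most 2 members per direction and comparison with the smallest p. From each marker list at most 4 genes with the highest mean are named. Any other gene named was chosen after its values were seen.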

Additional observations from a re-analysis of the deposited data

Results flagged for a closer look

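In a group of 4 libraries, a value was singled out when the gap between the highest or lowest library and its nearest neighbour took up more of the range of the group than the 95% critical value of Dixon's test for 4 samples allows. Chance singles out about 1 in 20 groups when values are normally distributed, and the genes are not independent. The CPM were used without a log scale and differed by orders of magnitude within a group, so that rate need not hold here. Of 60 sets of values examined, 35 passed this limit, each time with 1 high library. The summed level passed in Y665H males (0.899, male 3) and Y665F females (0.891, female 3).

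In the WT males WT male 2 was the library apart in all 12 cases: Defb20 (0.918), Defb48 (0.935), Defb25 (0.903), Defb30 (0.888), Defb47 (0.941), Defb12 (0.925), Lcn8 (0.905), Lcn5 (0.894), Spag11b (0.939), Lcn9 (0.919), Rnase10 (0.923) and Adam28 (0.92). In the Y665F males, male 1 stood apart for Defb20 (0.923), Defb28 (0.901), Defb22 (1), Defb23 (0.995), Defb12 (1), Adam7 (0.995) and Lcn5 (0.988), and male 4 for Defb42 (0.898), Defb48 (0.934), Defb47 (0.868) and Crisp1 (0.869). In the Y665H males, male 3 stood apart for Defb42 (0.935), Defb20 (0.947), Defb48 (0.95), Defb28 (0.907), Defb22 (0.927), Defb23 (0.9), Adam7 (0.93), Crisp1 (0.884) and Adam28 (1), and male 1 for Defb12 (0.922). The value of Adam28 rests on 3 counts in Y665H male 3, that of Defb12 on 10 counts in Y665H male 1.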

How the results depend on the processing

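DESeq2 called 14 members and 1141 genes in all for Y665F against WT males, 13 and 119 for Y665H against WT males, 39 and 4549 for WT males against females, 9 and 4256 for Y665F males against females, 20 members for Y665H males against females, and 1097 genes for Y665H against Y665F males. Without the filter on low counts, 9 of 54, 2 of 45 and 15 of 47 members were called in WT, Y665F and Y665H males against females. Of all genes, 1636 of 21653, 1818 of 20899 and 4799 of 21096 were called in the same comparisons. Higher in males were 9, 1 and 14 of the called members. With the replicate number as a block, 0 genes were called for Y665H against Y665F males, 825 for WT and 1173 for Y665F males against females. The block also moved Rnase10 across the threshold in 2 comparisons of the sexes, as given above. In WT males against females Adam28 gained a call with the block, so that 2 of 3 members were again called. No other call of a member changed with it. Whether the numbers pair the libraries is not known. The deviations of same-numbered libraries correlated at -0.36 to 0.71, above 0.1 in 9 of 24 pairs. Differently numbered libraries were not compared, so these values cannot decide it. RLE scaling changed no count of members by over 1.5 times.

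Leaving out a library gave 0 to 12 members and 0 to 570 genes called for Y665F against WT males, 0 to 0 and 0 to 1 for Y665H against WT males, 0 to 0 and 10 to 220 for Y665H against Y665F males, 0 to 41 and 251 to 5076 for WT males against females, 0 to 1 and 787 to 2180 for Y665F males against females, and 1 to 5 and 3599 to 4749 for Y665H males against females. The cause was not tested. For Y665H against Y665F males the estimates ran from -0.81 to 9.69 for Adam7, from -1.20 to 5.06 for Defb28 and from -5.54 to 1.98 for Lcn5, and so changed sign. Mean sums ran from 2123 to 9440 CPM in WT, 175.0 to 554.6 CPM in Y665F and 73.9 to 725.0 CPM in Y665H males. The other denominators, and leaving out Rnase10 and Adam28, an alternative chosen after seeing the data, moved these means by less than 1 SD.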

Other observations

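Foxj1, a regulator of motile cilia, was read from the airway list and followed neither the 57 genes nor the germ cell list. It was at 8.69, 7.13, 12.7 and 38.5 CPM in the WT males, 0.225, 2.06, 31.3 and 69.9 CPM in the Y665F males and 45.3, 7.79, 27.3 and 45.0 CPM in the Y665H males, and at most at 0.366 CPM in a female library. The other 3 airway genes were at most at 0.201 CPM in any male library. Ltf, the iron-binding protein lactotransferrin, was read from the list for oviduct and uterus and was at 99.3, 265 and 213 CPM in WT males 2 to 4 and 140.0 CPM in Y665H male 3, against at most 10.3 CPM in the other male and 2.903 CPM in the female libraries. Hsd3b6, a steroid synthesis enzyme of Leydig cells, was at 9.95 CPM in WT male 4 and at most at 0.0288 CPM in the other males. In Y665F male 4 the 5 skeletal muscle genes summed to 231 CPM, against 7.55 to 52.5 CPM in the other male libraries.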
